A study of Rattus norvegicus with 24 samples.

Results

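The 8 genes described here act in the licensing of DNA replication and in the cyclin-dependent kinases that drive the cell cycle. They are Mcm2, Mcm3, Mcm4 and Mcm5, which encode subunits of the replicative helicase, Ccne2 (cyclin E2), Cdk1 (the kinase of mitotic entry), and Cks1b and Cks2 (small subunits that bind cyclin-dependent kinases). They were chosen by their symbols in the platform's annotation, which gives them 9 of the 22523 probes of the array. Of these, 8 probes, 1 for each gene, were detected on at least 4 of 24 arrays and were measured. The measured probes were ILMN_1357317 (Mcm2), ILMN_1350210 (Mcm3), ILMN_2039387 (Mcm4), ILMN_2038852 (Mcm5), ILMN_1358432 (Ccne2), ILMN_1358490 (Cdk1), ILMN_1350177 (Cks1b) and ILMN_1365004 (Cks2). A second Mcm5 probe, ILMN_2040160, was detected on 0 arrays, so Mcm5 has a level from 1 of its probes.

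The cells were RBEC4, an established rat line derived from the endothelium of brain microvessels and grown to model the blood-brain barrier. Cultures at 95% confluence either received no particles (control) or silver nanoparticles at 1 ppm for 18 h. Particles with a nominal size of 10 nm or 75 nm carried a coating of polyvinylpyrrolidone (PVP10, PVP75) or of citrate (citrate10, citrate75), and each particle was given at the same concentration by mass. There were 4 control arrays and 5 arrays of each particle, all of rat RNA on Illumina BeadChips.

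Before each round of DNA synthesis, the origin recognition complex loads the MCM ring, built from Mcm2 to Mcm7, onto origins of replication in G1. This step is called licensing. Cyclin E with Cdk2 then promotes entry into S phase, where the MCM ring unwinds DNA as part of the replicative helicase, and Cdk1 with cyclin A or B drives entry into mitosis. Cks proteins dock onto these kinases and help them to act on their substrates, and Cks1 also serves the ubiquitin ligase that degrades the kinase inhibitor p27. Most of these genes are transcribed with the cell cycle, many under E2F factors, and cultures of dividing cells express them more strongly than resting ones.

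On the GRCr8 rat assembly, Mcm2 lies at chr4:122903679-122918205, Mcm3 at chr9:30715602-30733746, Mcm4 at chr11:98762599-98776300 and Mcm5 at chr19:13488813-13510131. Ccne2 lies at chr5:29082169-29094879, Cdk1 at chr20:19265252-19280456, Cks1b at chr2:177130751-177135333 and Cks2 at chr17:13722360-13727519. Coordinates came from a RefSeq table, and the deposited files give none. The same table holds 2 further copies of Cks1, Cks1l on chromosome 5 and Cks1l-ps1 on chromosome 2. The sequence of the Cks1b probe was not used here, so whether it also reads these copies was not tested.

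Promoters of 3 members are printed to show the letters through which cell cycle genes are often read. Cdk1 and Cks2 fell in PVP10, and Mcm3 was detected on every array and did not pass the test in any comparison. Each line runs 5′ to 3′ on the gene's strand, from 250 bases before to 50 bases after the transcription start, from the RefSeq table of GRCr8. For Cdk1 the start used here lies inside the gene span given above, and not at its edge. Capitals mark 3 motifs searched on both strands. They are an E2F-type motif (TTTNNCGC), a cell cycle homology type motif (TTTGAA, abbreviated CHR) and the CCAAT box (CCAAT).
Cdk1, chr20:19265043-19265342, plus strand: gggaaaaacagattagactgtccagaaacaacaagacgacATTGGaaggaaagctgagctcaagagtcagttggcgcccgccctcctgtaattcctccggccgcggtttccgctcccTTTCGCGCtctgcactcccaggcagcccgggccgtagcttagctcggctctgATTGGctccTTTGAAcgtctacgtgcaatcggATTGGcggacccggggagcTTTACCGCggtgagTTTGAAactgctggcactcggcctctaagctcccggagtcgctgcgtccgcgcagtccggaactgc
Cks2, chr17:13727470-13727769, minus strand: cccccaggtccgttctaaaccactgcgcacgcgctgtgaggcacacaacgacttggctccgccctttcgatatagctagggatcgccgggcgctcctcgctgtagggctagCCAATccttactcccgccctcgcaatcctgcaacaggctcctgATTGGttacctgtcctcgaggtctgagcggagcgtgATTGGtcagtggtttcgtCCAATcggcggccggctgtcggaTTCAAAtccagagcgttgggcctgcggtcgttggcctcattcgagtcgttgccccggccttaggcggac
Mcm3, chr9:30733697-30733996, minus strand: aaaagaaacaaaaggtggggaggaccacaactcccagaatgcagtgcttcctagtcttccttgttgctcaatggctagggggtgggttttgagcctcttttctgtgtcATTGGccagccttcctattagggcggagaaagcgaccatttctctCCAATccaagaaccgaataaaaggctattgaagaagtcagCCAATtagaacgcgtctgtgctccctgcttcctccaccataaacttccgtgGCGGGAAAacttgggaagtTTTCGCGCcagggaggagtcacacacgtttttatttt

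The promoter table held 6 of the 8 members, and Mcm4 and Ccne2 are named only. An E2F-type match was present in Mcm2, Mcm3, Mcm5 and Cdk1, that is 4 of 6, against 4.92% of 33469 promoters in the table. A CHR-type match was present in Mcm2, Cdk1, Cks1b and Cks2, again 4 of 6, against 18.3% of all promoters. A CCAAT box was found in 5 of 6, all but Mcm2, against 37.5% of all promoters. E2F-type matches on opposite strands overlapped each other in Mcm2, at positions -14 and -10 from the start, and in Mcm5, at -213 and -209. Positions are counted from the start used for each promoter, which for Mcm2 and Cdk1 lies inside the gene span given above. In the printed sequences the CHR-type match nearest to the start was at position -19 in Cks2 and at position -16 in Cdk1, and Mcm3 had none. Mcm2 and Cks1b, which also had CHR-type matches, did not pass the test in PVP10 against control. These are matches of letters and not tested sites.

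All values below are normalized log2 intensities, adjusted for background with an offset of 16, and they are compared only within a probe. A fold change is the chip-adjusted difference of these levels, which understates the change of dim probes. A probe is written as called when its adjusted p was under 0.05 (limma, Benjamini-Hochberg over the 2774 measured probes). Between 2128 and 2576 probes were detected per array, and arrays of a group correlated at r between 0.981 (PVP75) and 0.996 (citrate75). The labels do not say whether arrays came from separate cultures, so p-values measure the spread between these arrays, which may be technical. The arrays lay on 2 BeadChips, where chip 1 carried 4 of the PVP75 arrays, 3 citrate75, 2 citrate10, 2 PVP10 and 1 control. Of 16 endothelial marker genes on the array only Tie1 was measured, on 6 of 24 arrays, and Pecam1, Cdh5 and Vwf were not among the measured genes. The astrocyte marker Slc1a2, the only measured one of 6, stood at 5.37 ± 0.0851 (SD, n = 4) in control, 9.58 ± 0.524 in PVP10, 8.83 ± 0.217 in PVP75, 7.08 ± 0.320 in citrate10 and 5.68 ± 0.170 in citrate75 (n = 5 each), and was called against control in PVP10, PVP75 and citrate10 (limma). Of 10 neuronal markers 3 were measured, with group means between 4.52 and 5.37. Of these, Nefm was called higher in PVP10 (adjusted p = 0.0463) and Gad2, above background on 2 control arrays of 4 and on 0 PVP10 arrays of 5, lower (adjusted p = 0.00743). Markers of pericytes, fibroblasts, microglia and oligodendrocytes gave 0 measured genes. The part of cells that express these markers in the results below was not tested. In RNA from whole cultures, fewer cells in a phase of the cell cycle and less RNA per cell cannot be told apart.

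The first question was how the members' levels in PVP10 compare with those of untreated cells. Of the members, 3 fell in PVP10 and 1 rose. Mcm4, Cks2 and Cdk1 were lower, by 0.36, 0.36 and 0.30 on the log2 scale, and Ccne2 was higher by 0.29. The other 3 MCM genes and Cks1b did not pass the test. The 4 calls were 50% of the members, and over all measured probes 41.5% were called, 20.1% higher and 21.4% lower, so the share of members called was near that of the array as a whole. The median log2 fold change of the 8 members was -0.05, against -0.01 over all measured probes.

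**Figure D1:**
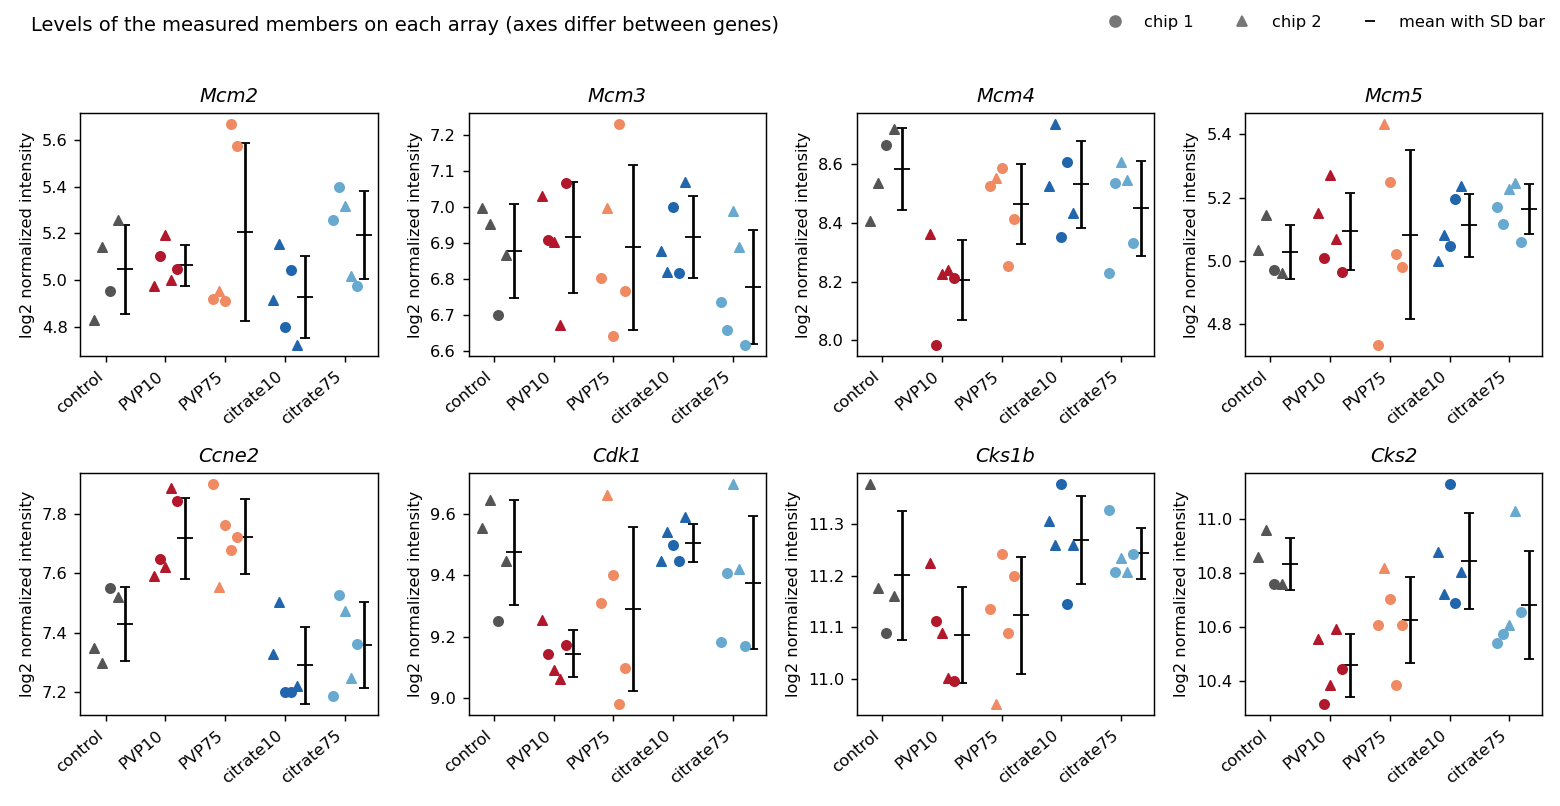
Normalized log2 intensity (vertical axis, scaled for each gene) of the 8 measured members on each of 24 arrays, by group. Circles are arrays of chip 1 and triangles of chip 2, and the bar beside each group is its mean with 1 SD. For Ccne2 all PVP10 and PVP75 points lie above all other points, and for Mcm4 and Cks2 all PVP10 points lie below all control points.

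Mcm4 was the only MCM member called in PVP10 against control. In control its log2 level was 8.41, 8.54, 8.67 and 8.72 in replicates 1 to 4. In PVP10 it was 8.36, 7.99, 8.22, 8.24 and 8.21 in replicates 1 to 5. Every PVP10 array was below every control array, and replicate 2 was the lowest. How many of all probes separate a pair of groups in this way was not counted, here or for the genes below. The mean was 8.58 ± 0.140 (SD, n = 4) in control and 8.21 ± 0.137 (SD, n = 5) in PVP10, a log2 fold change of -0.36 (SE 0.0987, adjusted p = 0.00385, limma), which is 0.779 of control. With any 1 of the 24 arrays left out the call held, at an adjusted p of at most 0.0380. Within chip 1, with 1 control array, the difference was -0.57 (adjusted p = 0.0896), and within chip 2 it was -0.28 (adjusted p = 0.0537), so neither chip alone gave a call.

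In the other groups Mcm4 lay higher than in PVP10. PVP75 arrays read 8.53, 8.55, 8.59, 8.25 and 8.41 in replicates 1 to 5. Citrate10 arrays read 8.53, 8.74, 8.35, 8.61 and 8.43. Citrate75 arrays read 8.23, 8.54, 8.61, 8.55 and 8.33. PVP75 replicate 4, citrate10 replicate 3 and citrate75 replicates 1 and 5 reached into the range of PVP10, and the other arrays of these groups lay within or above the range of control. In the order of group means, PVP10 was lowest, 0.24 below citrate75, the next group, and the 4 higher groups were each within 1 SD of their neighbours.

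Cks2, which encodes one of the small Cdk-binding subunits, fell by a similar amount. Its control arrays read 10.86, 10.96, 10.76 and 10.76. Its PVP10 arrays read 10.55, 10.31, 10.39, 10.59 and 10.45. Again the groups did not overlap. The mean moved from 10.83 ± 0.0957 (SD, n = 4) to 10.46 ± 0.116 (SD, n = 5), a log2 fold change of -0.36 (SE 0.103, adjusted p = 0.00612, limma), called with any 1 array left out (adjusted p at most 0.0243). The difference was -0.38 within chip 1 (adjusted p = 0.274) and -0.35 within chip 2 (adjusted p = 0.0238).

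Cks2 in PVP75 read 10.61, 10.82, 10.70, 10.39 and 10.61, which put 4 of 5 arrays below every control array. Citrate10 read 10.88, 10.72, 11.13, 10.69 and 10.80, with replicates 2 and 4 below the range of control and replicate 3 above it. Citrate75 read 10.54, 10.57, 10.61, 11.03 and 10.65. Its replicate 4 stood above every control array, and its other 4 lay below every control array, as 4 of 5 did in PVP75. The order of means ran from PVP10 through PVP75, citrate75 and control to citrate10. Only the step from PVP10 to PVP75, 0.17, exceeded the larger SD of the neighbouring groups (0.158), and that difference did not pass the test.

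Cdk1, the kinase partner of Cks proteins at entry into mitosis, was lower in PVP10. Control arrays gave log2 levels of 9.55, 9.65, 9.25 and 9.45, and PVP10 arrays gave 9.25, 9.14, 9.09, 9.06 and 9.17. The groups touched at control replicate 3 and PVP10 replicate 1, and the other arrays were apart. PVP10 was the tighter group, with a mean of 9.15 ± 0.0753 (SD, n = 5) against 9.47 ± 0.170 (SD, n = 4) in control. The log2 fold change was -0.30 (SE 0.104, adjusted p = 0.0206, limma). The Cdk1 call was lost without control replicate 2 (adjusted p = 0.0728), without PVP10 replicate 3 (0.0603), without PVP10 replicate 4 (0.0647) and with no detection filter (0.0904). The difference was -0.41 within chip 2 (adjusted p = 0.00481) and -0.09 within chip 1 (adjusted p = 0.850), where the only control array was replicate 3.

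PVP75 spread Cdk1 more widely than any other group, at 9.31, 9.66, 9.40, 8.98 and 9.10 in replicates 1 to 5. Replicates 4 and 5 were below the mean of PVP10, and replicate 2, the only PVP75 array on chip 2, was above every control array. Citrate10 was narrow, at 9.45, 9.54, 9.50, 9.45 and 9.59, and citrate75 read 9.18, 9.41, 9.70, 9.42 and 9.17. Cdk1 was the member that differed most between the chips, 0.19 higher on chip 2 (SE 0.0678, adjusted p = 0.192, limma), and the chip term was called for 0 members and for 30 of 2774 probes.

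Ccne2, which encodes a cyclin that partners Cdk2 at the G1/S transition, moved the other way. Control arrays read 7.35, 7.30, 7.55 and 7.52, and PVP10 arrays read 7.59, 7.65, 7.62, 7.89 and 7.84. PVP75 arrays read 7.90, 7.55, 7.76, 7.68 and 7.72. Every array of either PVP particle was above every control array. Citrate10 read 7.33, 7.50, 7.20, 7.20 and 7.22, and citrate75 read 7.19, 7.53, 7.47, 7.25 and 7.36. These citrate arrays lay in or below the range of control.

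The log2 fold change of Ccne2 in PVP10 was 0.29 (SE 0.0984, adjusted p = 0.0203, limma), 1.22-fold, from 7.43 ± 0.126 (SD, n = 4) to 7.72 ± 0.137 (SD, n = 5). This call was lost without control replicate 1 (adjusted p = 0.0573), without control replicate 2 (0.0747), without PVP10 replicate 4 (0.0699), and with no detection filter (0.0722). Within chip 1 the difference was 0.20 (adjusted p = 0.600) and within chip 2 it was 0.31 (adjusted p = 0.0411). In PVP75 the difference from control was of like size, 0.28 (SE 0.104), and was not called (adjusted p = 0.123). All 10 PVP arrays were above all 14 other arrays, a pattern noticed after the values were seen, and 44 of 2774 probes (1.59%) showed it. The margin was 0.00256 on the log2 scale, between PVP75 replicate 2 and control replicate 3, and with cyclic loess scaling 9 of the 10 stood above all others. The order of means was citrate10, citrate75, control, PVP10 and PVP75, and only the step from control to PVP10, 0.29, was larger than the SD of the neighbouring groups.

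The other 4 members did not pass the test in PVP10. Cks1b, whose product binds Cdks as Cks2 does, read 11.38, 11.18, 11.09 and 11.16 in control and 11.22, 11.11, 11.09, 11.003 and 10.996 in PVP10. The groups overlapped, with a log2 fold change of -0.12 (95% interval -0.29 to 0.06, adjusted p = 0.306, limma). Mcm3 had means of 6.88 ± 0.131 (SD, n = 4) in control and 6.92 ± 0.154 (SD, n = 5) in PVP10, a difference of 0.05 (95% interval -0.17 to 0.27, adjusted p = 0.769). Across all 24 arrays Mcm3 ranged from 6.62 in citrate75 to 7.23 in PVP75. Its group means lay between 6.78 and 6.92, with every step in their order smaller than the SD of the neighbouring groups.

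Mcm2 and Mcm5 lay close to the detection limit. Mcm2 was detected on 17 of 24 arrays, namely 2 of 4 control, 5 of 5 PVP10, 3 of 5 PVP75, 2 of 5 citrate10 and 5 of 5 citrate75 arrays. Its log2 level in PVP75 was 4.92, 4.95, 4.91, 5.67 and 5.58, and replicates 4 and 5 were above all other arrays of the study. These were the PVP75 arrays with the lowest Cdk1. Mcm2 in PVP10 differed from control by 0.01 (95% interval -0.28 to 0.30, adjusted p = 0.965, limma). Mcm5 was detected on 20 arrays, with group means between 5.03 (control) and 5.16 (citrate75), and differed by 0.09 in PVP10 (95% interval -0.11 to 0.29, adjusted p = 0.541). These intervals do not show that the genes were unaltered.

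**Figure D2:**
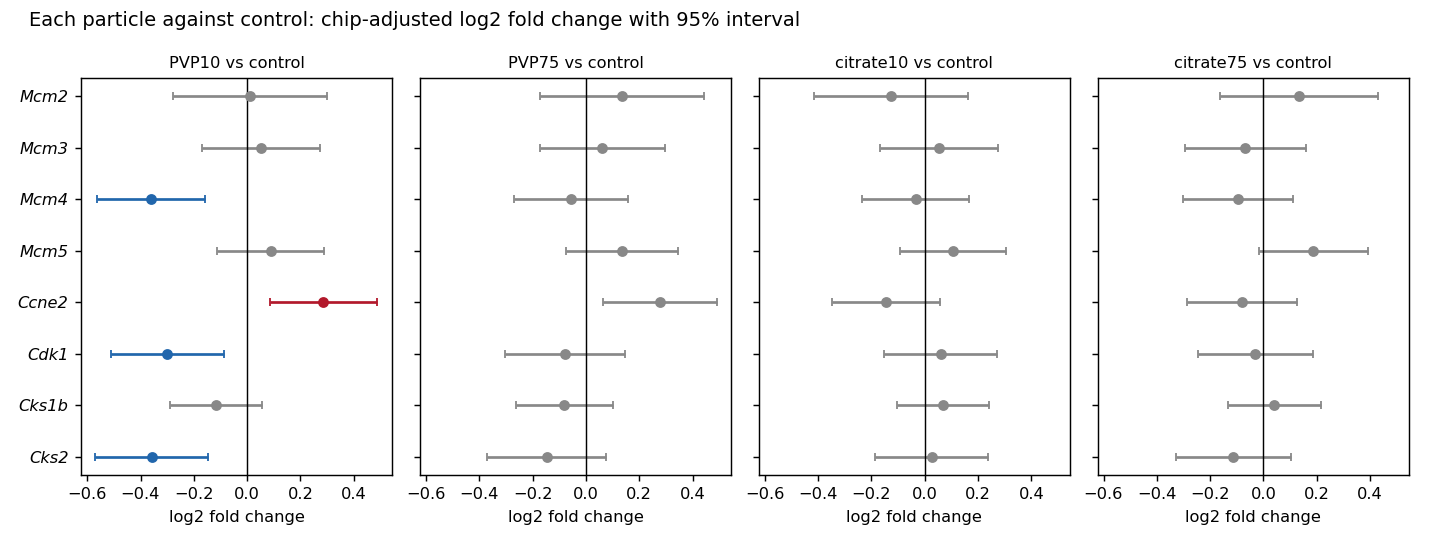
Chip-adjusted log2 fold change of each member against control (horizontal axis) for the 4 particles, with 95% intervals from the limma fit. Red marks a called rise and blue a called fall. Calls appear for Mcm4, Ccne2, Cdk1 and Cks2 in PVP10, and no interval is coloured in the other panels.

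No member was called in PVP75, citrate10 or citrate75 against control, at a background of 5.3%, 0.036% and 0% of probes called. In PVP75, 1 member, Ccne2, had an unadjusted p under 0.05, beside 513 of 2774 probes. In citrate10 and citrate75, 0 members had one, beside 115 and 242 probes. Member differences from control reached at most 0.14 in size in citrate10 (Ccne2, -0.14) and 0.19 in citrate75 (Mcm5). Their 95% intervals extended between 0.17 and 0.30 on either side. The 4 comparisons share the same control arrays and are given side by side only. For Mcm4 the differences from control were -0.36 in PVP10, -0.06 in PVP75, -0.03 in citrate10 and -0.09 in citrate75. For Cdk1 they were -0.30, -0.08, 0.06 and -0.03, and for Cks2 -0.36, -0.15, 0.03 and -0.11, in the same order.

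**Figure D3:**
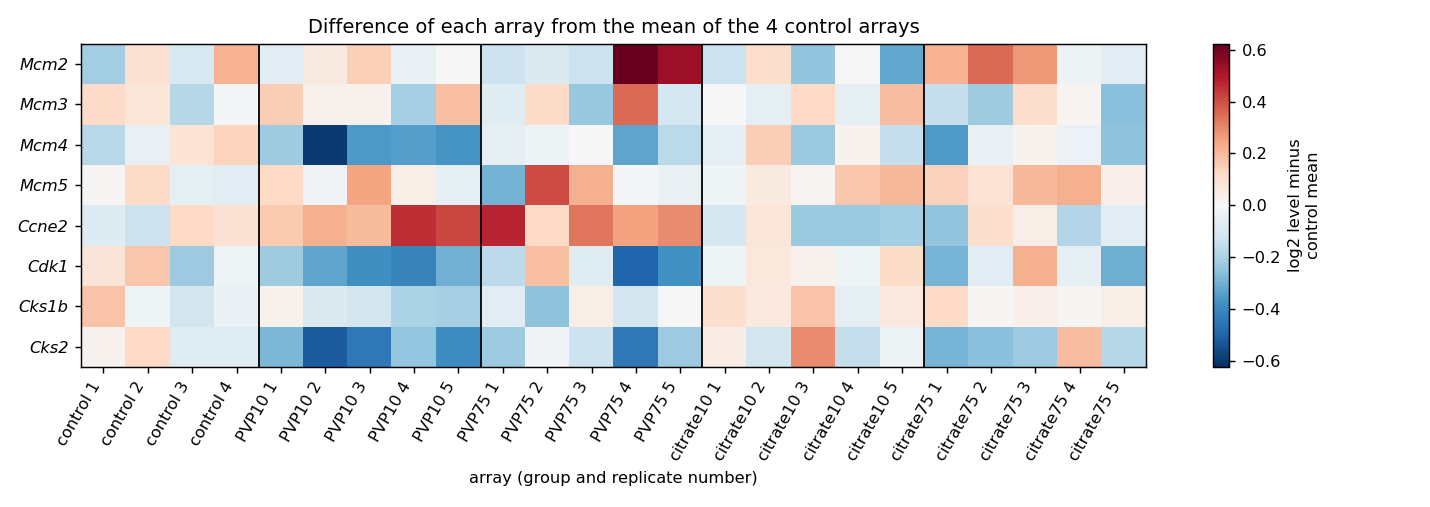
Difference of each array's log2 level from the mean of the 4 control arrays, for the 8 members (rows) on 24 arrays (columns, by group and replicate number). Blue is lower and red higher than the control mean. Mcm4, Cdk1 and Cks2 are blue on all 5 PVP10 arrays, Ccne2 is red on all 10 PVP arrays, and PVP75 replicates 4 and 5 are red for Mcm2 and blue for Cdk1.

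The comparison of coatings at 10 nm gave the clearest differences among the members. PVP10 was higher than citrate10 for Ccne2 by 0.43 (SE 0.0923, adjusted p = 0.000349, limma), with all 5 arrays above all 5. It was lower for Cks2 by a log2 fold change of -0.38 (SE 0.0971, adjusted p = 0.00181) and for Cdk1 by -0.36 (SE 0.0972, adjusted p = 0.00337), both without overlap of the arrays. The share of all probes that separate PVP10 from citrate10 in this way was not counted. Mcm4 was lower too, at -0.33 (SE 0.0926, adjusted p = 0.00490), with PVP10 replicate 1 reaching above citrate10 replicate 3. These 4 of 8 calls stand beside 41.7% of all probes called. Cks1b was lower by 0.18 on the log2 scale and was not called (-0.18, adjusted p = 0.0611), and it passed the threshold in 4 of the 13 alternatives, no background correction among them (adjusted p = 0.0145). Mcm2, Mcm3 and Mcm5 differed by 0.14, 0.00 and -0.02. PVP10 arrays enter this comparison and that with control, so the calls of both rest in part on the same arrays.

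Within the chips, the 4 coating differences called at 10 nm kept their direction. Those of Mcm3 (0.08 on chip 1 and -0.05 on chip 2) and Mcm5 (-0.13 and 0.06), which were not called, changed sign. Ccne2 differed by 0.55 on chip 1 (adjusted p = 0.0217) and 0.35 on chip 2 (adjusted p = 0.0231). Cks2 differed by -0.53 on chip 1 (adjusted p = 0.0386) and -0.29 on chip 2 (adjusted p = 0.0592). Cdk1 was -0.31 on chip 1 (adjusted p = 0.218) and -0.39 on chip 2 (adjusted p = 0.00733), and Mcm4 was -0.38 (adjusted p = 0.141) and -0.29 (adjusted p = 0.0455). Chip 1 held 2 arrays of each of these groups and chip 2 held 3.

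At 75 nm, 1 of 8 members differed between the coatings, against 14.1% of all probes. Ccne2 was higher in PVP75 than in citrate75 by 0.36 (SE 0.0932, adjusted p = 0.00915, limma), with all 5 PVP75 arrays above all 5 citrate75 arrays. Of all probes, 9.84% differed more than this in either direction, and how many separated the arrays of the 2 groups was not counted. Within chip 1 the difference was 0.41 (adjusted p = 0.0613). Chip 2 held 1 PVP75 array and gave 0.19 (adjusted p = 0.654). The remaining 7 members differed by between -0.12 (Cks1b) and 0.13 (Mcm3). For Mcm4, Cdk1 and Cks2, the genes lower in PVP10, the differences were 0.04 (95% interval -0.15 to 0.23), -0.05 (-0.25 to 0.15) and -0.03 (-0.23 to 0.17).

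**Figure D4:**
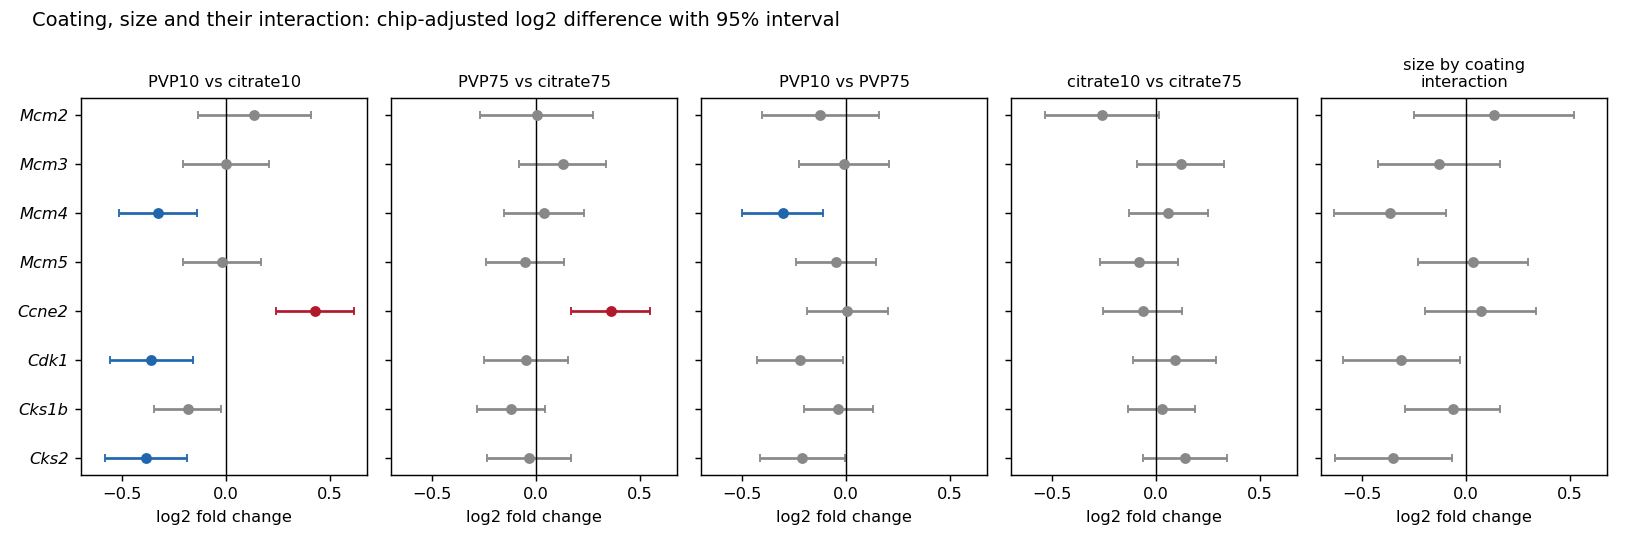
Chip-adjusted log2 difference of each member, with 95% intervals, between coatings at each size, between sizes within each coating, and for the interaction of size and coating. Red and blue mark calls. Ccne2 is called for the coating at both sizes, and Mcm4 is the single call for size, within PVP.

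Between sizes, PVP10 was lower than PVP75 for Mcm4 by a log2 fold change of -0.31 (SE 0.0961, adjusted p = 0.0168, limma), the only call among 8 members, at a background of 28% of probes. That call was lost without PVP10 replicate 2, the lowest Mcm4 array (adjusted p = 0.0739), with no detection filter (0.0612), and within chip 1 (-0.35, adjusted p = 0.142) or chip 2 (-0.28, adjusted p = 0.268). Cdk1 and Cks2 were at -0.22 (adjusted p = 0.103) and -0.21 (adjusted p = 0.124) and were not called. Cdk1 was called without PVP75 replicate 4 (-0.28, adjusted p = 0.0345) and with array weights (-0.27, adjusted p = 0.0477). Within chip 2, with 1 PVP75 array, the Cdk1 difference was -0.52 (adjusted p = 0.0277), and within chip 1 it was -0.04 (adjusted p = 0.902). Ccne2 differed by 0.01 between the PVP sizes, with a 95% interval from -0.19 to 0.20. Between citrate10 and citrate75, 0 members were called, at a background of 0.144%, and 0 had an unadjusted p under 0.05, beside 381 of all probes. The widest citrate difference was that of Mcm2, -0.26 (95% interval -0.53 to 0.02).

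The interaction asks whether the size difference depended on the coating, as (PVP10 minus PVP75) minus (citrate10 minus citrate75). None of the 8 members was called (limma, adjusted p under 0.05), while 15.2% of all probes were. Mcm4 was at -0.37 (SE 0.132, adjusted p = 0.0592), Cks2 at -0.35 (SE 0.138, adjusted p = 0.0897) and Cdk1 at -0.31 (SE 0.138, adjusted p = 0.144). All 3 had an unadjusted p under 0.05, beside 722 of 2774 probes. With single arrays left out, Mcm4 passed the threshold without PVP75 replicate 4 (adjusted p = 0.0340), without citrate10 replicate 5 (0.0462) or without citrate75 replicate 2 (0.0433). Cks2 passed without PVP75 replicate 4 (0.0474) or without citrate75 replicate 4 (0.0331). For Ccne2 the interaction was 0.07 (95% interval -0.20 to 0.34). The coating difference of Ccne2 was called at both sizes. That of Mcm4, Cdk1 and Cks2 was called at 10 nm and not at 75 nm, and the test of the difference between these did not pass.

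How the members varied together was described over the 24 arrays after the group and chip means were removed. The strongest positive correlation was between Mcm4 and Ccne2 (Pearson r 0.57, Spearman rho 0.45), genes that moved in opposite directions in PVP10. Mcm5 and Ccne2 ran opposite (r -0.58, rho -0.65), as did Mcm2 and Cks2 (r -0.58, rho -0.65). Cdk1 and Cks2, which both fell in PVP10, correlated at r 0.27 (rho 0.32), and at 0.09 without the 2 arrays farthest from the median of Cdk1. Among the MCM members r lay between -0.43 (Mcm3 with Mcm4) and 0.21 (Mcm2 with Mcm3, rho 0.07). Mcm2 and Mcm5 lay close to the detection limit, which limits every correlation given for them here. Arrays share chip, scaling and labelling, so these values are descriptions.

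The genes most like the members over the arrays were named by Pearson correlation among 1934 named genes. The mean profile of the 4 MCM genes was closest to Or4f60 (r 0.67), Hmgxb4 (0.58), Wwp2 (0.56), Loxl1 (0.54) and Lcn1 (0.54). It averages genes whose r with each other, group and chip means removed, lay between -0.43 and 0.21. Of these genes, Mcm2 and Mcm5 lay close to the detection limit. The mean profile of Ccne2, Cdk1, Cks1b and Cks2 was closest to Immt (r 0.73), Gas2l1 (0.73), S100a6 (0.72), Abhd17c (0.71) and Prkra (0.70). The latter profile averages Ccne2, which rose in PVP10, with Cdk1 and Cks2, which fell. With group and chip means removed, r for these 10 genes lay between 0.42 (Loxl1) and 0.69 (Or4f60). No gene of the replication and cell cycle lists below was among the 10. Those lists held 30 of the 1934 genes compared, too few for their absence to say anything about the members.

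Other genes of the pathway came from 7 lists with 163 genes, of which 127 were on the array and 30 were measured. In PVP10 against control, 11 of the 30 fell and 5 rose, that is 53.3% against 41.5% of all probes, with a median log2 fold change of -0.18 against -0.01 over all probes. Within chip 1, with its single control array, 2 fell and 1 rose, and within chip 2, 13 fell and 5 rose. In PVP75, citrate10 and citrate75, 0 of 30 passed the test (limma), beside 5.3%, 0.036% and 0% of all probes.

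Among the 4 measured genes of origin recognition and licensing, 3 fell in PVP10 and 0 rose. Over all probes, 21.4% were called lower and 20.1% higher. Gins3, a subunit of the GINS complex that joins MCM in the active helicase, fell by 0.61 on the log2 scale (SE 0.128, adjusted p = 0.000288, limma), from 8.37 ± 0.143 (SD, n = 4) to 7.76 ± 0.119 (SD, n = 5). Mcm8, a relative of the MCM subunits that works in recombination, fell by 0.59 (adjusted p = 9.7e-06), from 7.47 ± 0.140 to 6.87 ± 0.0710, with control arrays from 7.31 to 7.65 and PVP10 arrays from 6.79 to 6.95. Orc1, the largest subunit of the origin recognition complex, fell by 0.39 (adjusted p = 0.00207). The helicase gene Recql4 was at 0.01 (adjusted p = 0.946). All 3 that fell were also lower in PVP10 than in PVP75 and than in citrate10.

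At the replication fork, 4 of 7 measured genes fell in PVP10 and 0 rose, beside 21.4% of all probes lower and 20.1% higher. Pole2, an accessory subunit of DNA polymerase epsilon, fell by 0.49 (adjusted p = 0.000616, limma) and Pola2, the regulatory subunit of polymerase alpha, by 0.48 (adjusted p = 0.00288). The RNase H2 subunit gene Rnaseh2a fell by 0.37 (adjusted p = 0.00628) and the flap endonuclease gene Fen1 by 0.32 (adjusted p = 0.00491). None of these 4 was called in PVP75 against control, where they had means of 7.12, 5.93, 9.98 and 9.38, beside 7.08, 5.82, 10.01 and 9.27 in control. Of the 2 measured genes of nucleotide supply, Cad, which encodes the enzyme that begins pyrimidine synthesis, fell by 0.45 (adjusted p = 0.00114), and Umps was at -0.21 (adjusted p = 0.130).

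**Figure D5:**
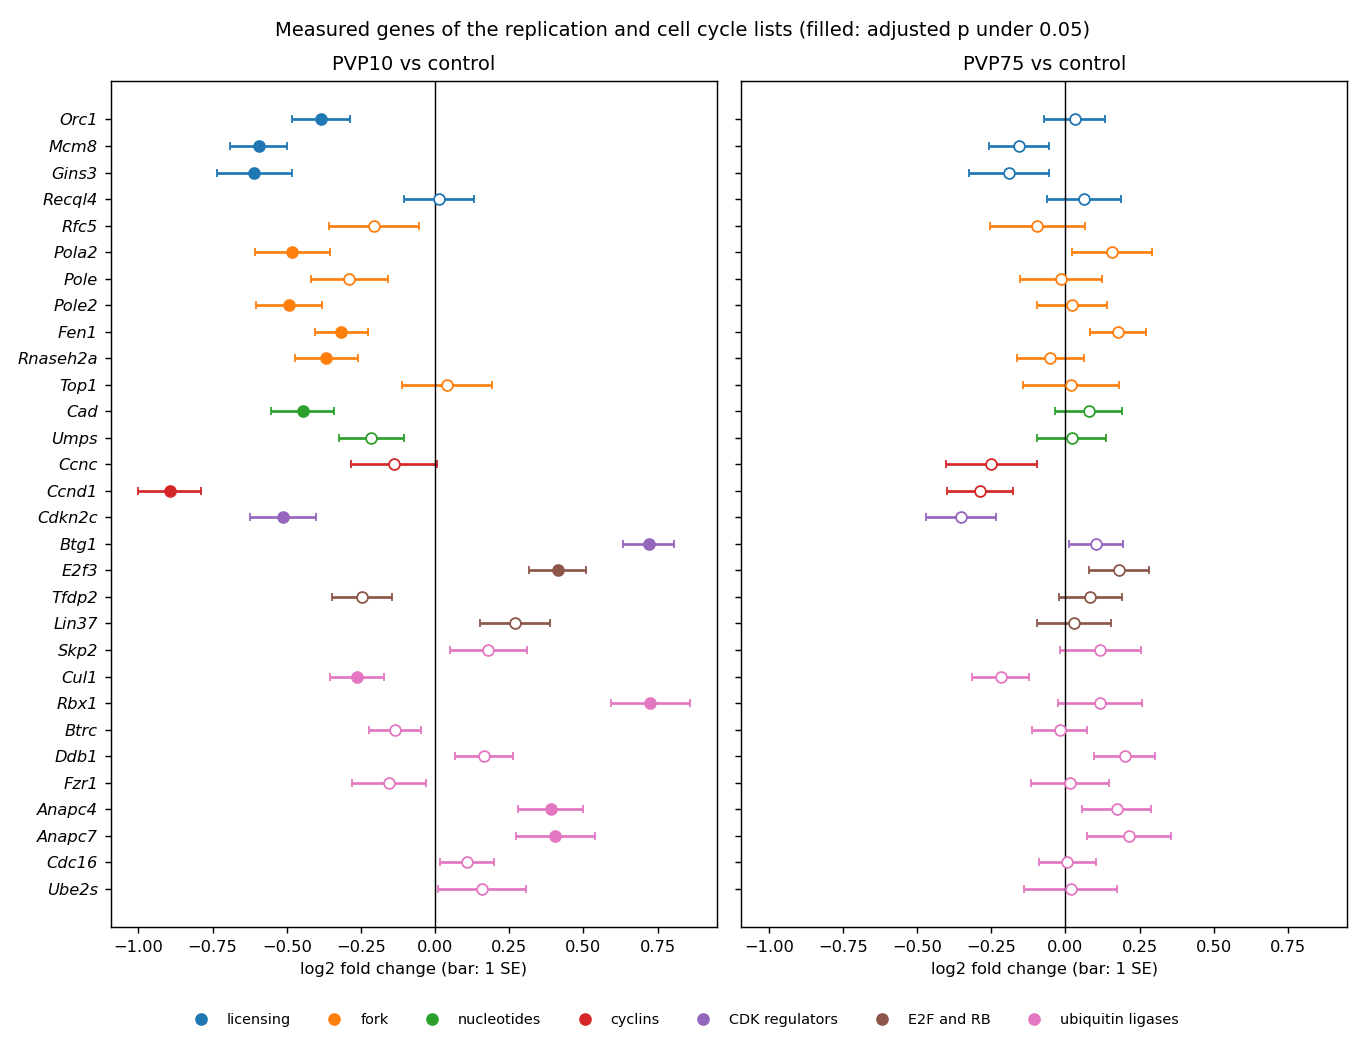
Log2 fold change against control (horizontal axis, bars 1 SE) of the 30 measured genes of the 7 lists, in PVP10 (left) and PVP75 (right), coloured by list. Filled points are called. In PVP10 the licensing and fork genes that are called lie to the left of 0, from Gins3 at -0.61 to Fen1 at -0.32, and no point is filled in PVP75. Points of genes not above background in a group, such as Cdkn2c, Anapc7 and Lin37, are fitted values and not measured folds.

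Around the kinases themselves, Ccnd1 showed the largest change of all 30 genes. Ccnd1 encodes cyclin D1, the G1 partner of Cdk4 and Cdk6, and it fell by 0.90 on the log2 scale (SE 0.106, adjusted p = 6.21e-08, limma), from 11.93 ± 0.0691 (SD, n = 4) to 11.04 ± 0.118 (SD, n = 5). Its PVP10 arrays lay between 10.86 and 11.18 and its control arrays between 11.85 and 12.01, with no overlap. The share of all probes without such overlap was not counted. Ccnc was at -0.14 (adjusted p = 0.506). Btg1, which encodes an antiproliferative factor, rose by 0.72 (adjusted p = 7.41e-08). The Cdk4 and Cdk6 inhibitor gene Cdkn2c was above background on 3 control arrays of 4 and on 0 PVP10 arrays of 5, with means of 5.16 and 4.64, and was at least 1.17-fold lower (adjusted p = 0.000384). A bound of this kind compares the brighter group's mean, without the chip term, with a floor in the dim group. It makes no allowance for the spread between arrays. That floor is each array's lowest signal among detected probes, or the dim probe's own signal where it is higher.

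Of 3 measured genes of the E2F and RB family, E2f3, an E2F factor, rose by 0.41 (adjusted p = 0.000829, limma), and Tfdp2 (-0.25, adjusted p = 0.0503) did not pass. Lin37, above background on 0 control arrays of 4 and 3 PVP10 arrays of 5, did not pass either (adjusted p = 0.0702). Of 10 measured genes of cell cycle ubiquitin ligases, 3 rose and 1 fell. That share called was near the 41.5% of all probes. Rbx1, the RING subunit shared by cullin ligases, rose by 0.72 (adjusted p = 5.71e-05) and the anaphase-promoting complex gene Anapc4 by 0.39 (adjusted p = 0.00466). Anapc7 of the same complex was above background on 0 control arrays of 4 and on 4 PVP10 arrays of 5. Its means were 4.68 and 5.08, and by the bound described above, which leaves out the spread, it was at least 1.11-fold higher (adjusted p = 0.0146). Cul1, the scaffold of the ligase that Cks1 serves, fell by 0.26 (adjusted p = 0.0197). The call of Cul1 was lost with cyclic loess scaling and without PVP10 replicate 1 or 4, and that of Anapc7 with no detection filter and without control replicate 3 or PVP10 replicate 1.

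The same lists in the other comparisons gave 10 lower and 2 higher in PVP10 against PVP75 (40% against 28% of all probes), and 12 lower and 5 higher in PVP10 against citrate10 (56.7% against 41.7%). Those lower than in PVP75 were Orc1 (-0.42), Mcm8 (-0.44), Gins3 (-0.42), Pola2 (-0.64), Pole2 (-0.51), Fen1 (-0.49), Rnaseh2a (-0.32), Cad (-0.52), Ccnd1 (-0.61) and Tfdp2 (-0.33), and those higher were Btg1 (0.62) and Rbx1 (0.61). The call of Rnaseh2a was lost with no detection filter, with array weights, and without PVP10 replicate 5 or PVP75 replicate 5 (adjusted p up to 0.0957), and that of Gins3 with no detection filter. Within chip 1, 3 were lower and 2 higher than in PVP75, and within chip 2, 6 were lower and 1 higher. Against citrate10, the genes called against control were called in the same direction except Anapc7, with Tfdp2 (-0.32) and the F-box gene Skp2 (0.38) in addition. The call of Cul1 was lost with cyclic loess scaling and without citrate10 replicate 5, and that of Skp2 with no detection filter. Within chip 1, 2 were lower and 4 higher than in citrate10, and within chip 2, 12 and 5. In PVP75 against citrate75, 4 were lower, Gins3 (-0.35), Ccnd1 (-0.33), Cdkn2c and Fzr1, and 3 higher, Rbx1 (0.62), Umps (0.35) and Btg1 (0.27), in all 23.3% against 14.1% of all probes. In PVP75, control and citrate75, Rbx1 had means of 8.05, 7.97 and 7.44, and Umps of 6.97, 6.94 and 6.62. Btg1 had 9.50, 9.40 and 9.23, Gins3 8.18, 8.37 and 8.53, and Ccnd1 11.67, 11.93 and 11.99. With no detection filter, 1 listed gene was lower and 2 were higher. No size is given for Cdkn2c, above background on 1 PVP75 array of 5 and all 5 citrate75 arrays, or for Fzr1, above background on 1 and 4. Within chip 1, 1 was lower and 1 higher, and within chip 2, which held 1 PVP75 array, 0 were called. With 1 array left out, the call of Gins3 was lost in 17 of 24 cases (adjusted p up to 0.171), and those of Fzr1, Umps, Ccnd1 and Btg1 in 6, 4, 4 and 3 cases. Between citrate10 and citrate75, 0 of 30 were called.

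The interaction of size and coating was called for 6 of the 30 genes (20% against 15.2% of all probes). Pola2 (-0.68, adjusted p = 0.00625, limma), Pole2 (-0.59, 0.00647), Fen1 (-0.51, 0.00377), Ccnd1 (-0.56, 0.00624) and Tfdp2 (-0.43, 0.0276) had a more negative size difference with PVP than with citrate, and Btg1 a more positive one (0.47, 0.00529). The call of Tfdp2 was lost in 6 of 24 omissions of an array (adjusted p up to 0.0667). Within chip 1, 0 of the 30 interactions were called (limma), and within chip 2, 2 were, both negative. The members Mcm4, Cks2 and Cdk1 had interactions of -0.37, -0.35 and -0.31, smaller than those of these genes, and none was called.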

How the data were processed

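Expression of rat genes was measured in 24 RNA samples, 1 array each, in the groups given above. Per the file headers, the deposited signal table holds a linear bead intensity for 22523 probes and, beside each, a detection p-value from the authors' software. These intensities are not background-subtracted or normalized, as read from their values. The submitters' processing notes name GenomeStudio 2011.1 and no setting of it. A second deposited table of intensity values had nearly equal quantiles on every array, to within 0.120%, and served as an alternative. Here the background was corrected by normexp with its distribution inferred from the detection p-values (offset 16), followed by quantile normalization and log2 (limma 3.58.1, R 4.3.3). Probes with a detection p under 0.01 on at least 4 arrays were kept, 2774 in all (12.3%). A linear model with group and BeadChip was fitted to all 24 arrays (lmFit, eBayes), and p-values were adjusted over the kept probes within each of 9 comparisons. The number of arrays limits the precision, and the fit was tested on simulated data.

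The platform's annotation names 13793 probes with 1 gene symbol, several symbols for 0, and 8730 are unnamed. All 8 members matched the GRCr8 table by Entrez identifier. Where a listed gene had more than 1 kept probe, the brightest stood for it. The members and lists were chosen with earlier results of these data known. All members were named whatever their result, with up to 4 called genes of each list in PVP10 against control by size of change, any listed gene called elsewhere, and the 5 genes most like each profile. Genes of the lists that did not pass were named only as values. Pairing by replicate number was checked through residual correlations between same-numbered arrays of different groups (median r 0.00255 over 46 pairs), which did not pair them.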

Additional observations from a re-analysis of the deposited data

Results flagged for a closer look

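In 1 of 40 sets (8 members in 5 groups) a single array stood far from the rest of its group by a test of the gap against the range (Dixon, 95%). Cks2 in citrate75 replicate 4 had a log2 level of 11.03, and the other 4 citrate75 arrays lay between 10.54 and 10.65. Chance alone flags about 1 in 20 such sets, so 1 in 40 is no pattern. Without this array the interaction of size and coating for Cks2 was -0.42 (adjusted p = 0.0331, limma) instead of -0.35 (adjusted p = 0.0897), and citrate75 against control for Cks2 was not called in either case.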

How the results depend on the processing

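Each value was recomputed under 13 alternatives (background, scaling, filter, chip, replicate block, array weights) and with each of 24 arrays left out. Of 370 recomputations of called member values, 22 lost the call and 0 changed direction, and of 2294 of uncalled values 19 gained one. For PVP10 against control the 4 calls became 2 with no detection filter and 0 within chip 1 alone, and ranged from 2 (without control replicate 2 or PVP10 replicate 4) to 4 with arrays left out. For PVP10 against PVP75 the 1 call became 0 with no filter and within chip 1, and 2 with array weights, and ranged from 0 to 2 (0 without PVP10 replicate 2, 2 without PVP75 replicate 4). For PVP10 against citrate10 the 4 calls became 2 within chip 1, and ranged from 4 to 5. For PVP75 against citrate75 the 1 call became 0 within either chip. For the interaction the 0 calls became 1 with no background correction, an offset of 50, the authors' processed values, detection on all arrays of a group, or array weights, and ranged from 0 to 2 (2 without PVP75 replicate 4). Over all probes, dropping the filter raised those tested from 2774 to 22523 and moved the calls of PVP10 against control from 1152 to 907, and of PVP75 against control from 147 to 71. With the replicate block, 4 members were called in PVP10 against control and no member call was gained or lost in any comparison. The numbers did not pair the arrays (7 of 46 same-numbered pairs with r over 0.1, and 4 arrays best correlated with their own number). Chip 1 held 1 control array, whose spread was taken from the other groups. For the listed genes, examined under the same alternatives after seeing the data, the 5 higher and 11 lower in PVP10 ranged from 4 to 6 and from 10 to 13 with arrays left out, and 0 reversed. Within chip 1 alone, Mcm8 and Ccnd1 still fell and Btg1 still rose. Of the listed calls in PVP75 against citrate75, that of Gins3 was lost in 17 of 24 omissions of an array. Depth of signal limits Mcm2 and Mcm5, which lay near background.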
